A study of Arabidopsis thaliana with 54 samples.

Results

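Whole rosettes of Arabidopsis thaliana accession Col-0 that met cold for the first time at an age of 35 days were compared after 4 h at 4 °C with plants of the same age sampled at 0 h. The members of this comparison are the 3 libraries labelled C35P at 4 h and the 3 labelled C35P at 0 h, 6 of the 54 RNA-seq libraries of the study, chosen by their labels and not by any measured value. Each group holds 1 library from each of 3 independent experiments (Exp1 to Exp3), and each library pools material of 5 samples. Until 0 h the plants stood at 20 °C by day and 16 °C by night under 200 µmol of light in days of 16 h. The cold chamber had the same day length but 90 µmol of light, so light fell together with temperature. C35P serves the study as the developmental control for plants that were cold-treated earlier. For comparison, C28P plants met their first cold at 28 days. C28PLT plants had been through 3 days of cold at 28 days and a lag of 7 days in the warm, and then met cold again. All plants were Col-0, with no mutant or transgene.

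The question of the comparison is which transcripts had moved 4 h into a first cold in these older plants. No warm library was taken at 4 h, so cold, lower light and 4 h of clock time cannot be told apart here.

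In Arabidopsis, falling temperature is read within minutes through calcium signals and protein kinases, which act on transcription factors such as ICE1 and the CAMTA proteins. These switch on the CBF genes, a small set of AP2-type transcription factors. CBF proteins bind the CRT/DRE element in the promoters of the COR genes, whose protective proteins build up over hours to days during cold acclimation. The circadian clock gates this response and is itself slowed and damped by cold.

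Total counts ran from 27740329 to 31875234 per library, and between 22219 and 22562 genes had at least 1 read. Levels are given as CPM, read counts scaled to a common library size with TMM, in the order Exp1, Exp2 and Exp3, and n = 3 libraries per group throughout. A gene is called risen or fallen at a Benjamini-Hochberg adjusted p under 0.05 in an edgeR quasi-likelihood test over 20720 genes. SE is the standard error of a log2 change. The markers of the labelled tissue were present: 11 of 11 rosette cell markers and all 21 genes of light harvesting and Rubisco were measured, and the latter summed to between 136996 and 223973 CPM in a library. The 10 flower markers, 8 of which passed the filter on low counts, summed to at most 6.59 CPM in a library. In all 6 libraries, 4 of the 10 root markers (RHD6, RSL4, EXPA7 and LRX1) were at 0. Of the 3 root markers that passed the filter, SCR, which rosettes also express, reached at most 13.0 CPM and the other 2, WOX5 and CASP1, at most 0.493 CPM. Libraries differed in how deviations from the gene means followed transcript length. Spearman's rho over genes was -0.396 and -0.318 in the Exp1 and Exp3 libraries at 0 h, 0.195 in that of Exp2, and between -0.0889 and 0.228 in the 4 h libraries.

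At 4 h, 2125 of 20720 genes were called (10.3%), of which 1170 had risen (5.65%) and 955 had fallen (4.61%). The counts of each gene list below are to be read beside these shares. Rises were larger than falls: the median risen gene was 3.46-fold higher and the median fallen gene 2.59-fold lower. A log2 change of at least 3 was reached by 230 risen and 69 fallen genes. In 1137 of the risen and 883 of the fallen genes the 3 libraries at 4 h did not overlap the 3 at 0 h. The calls come from the same libraries, so this separation largely follows from them and is no separate support. The share without overlap over all genes tested is not given here. Over all genes tested the median log2 change was -0.02.

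**Figure D1:**
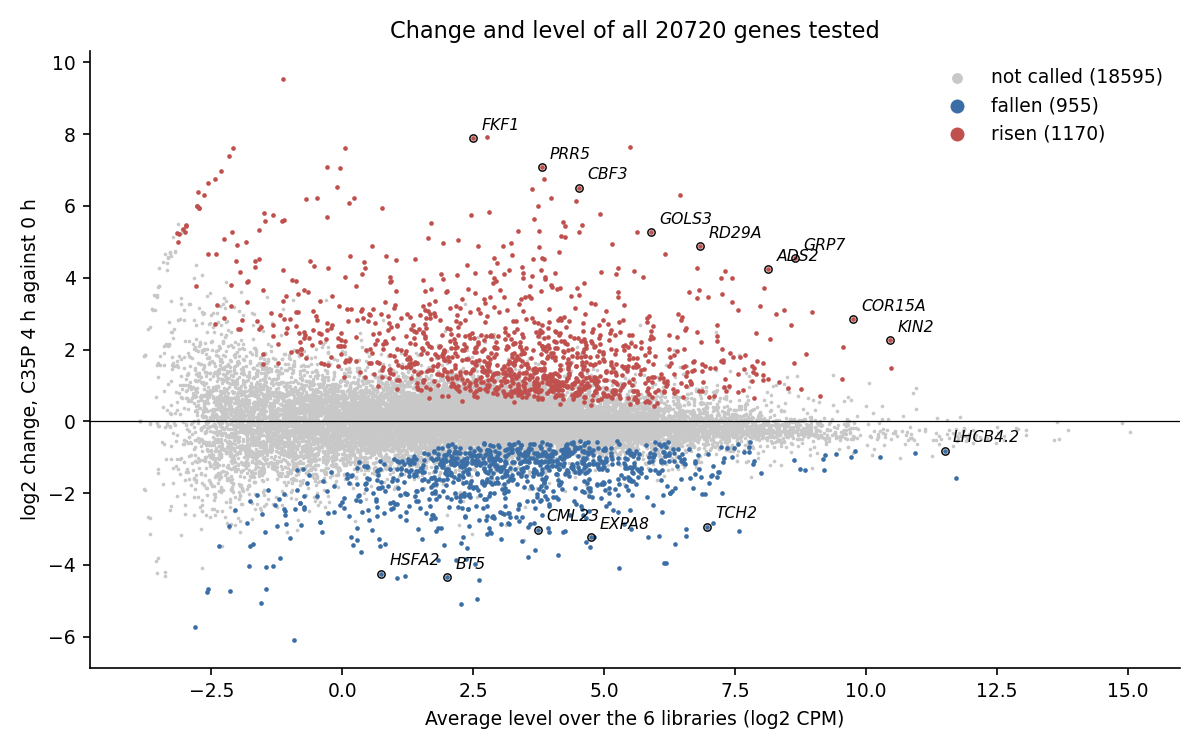
Each point is 1 of the 20720 genes, with its average log2 CPM over the 6 libraries on the x axis and its log2 change from 0 h to 4 h on the y axis; red points are the 1170 risen genes, blue points the 955 fallen genes and grey points those not called. A log2 change of at least 3 is reached by 230 risen and 69 fallen genes.

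The counts rest on few libraries. Without the Exp2 library at 4 h the call count was 1398, and the fallen genes numbered 516 without it, 636 without the Exp1 library at 4 h, and 610 and 633 without the Exp1 and Exp3 libraries at 0 h. Of the called genes, 660 risen and 353 fallen were called whichever 1 of the 6 libraries was left out.

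Several of the highest rises were in the evening arm of the circadian clock. Of the 18 genes on the list of day and evening clock components, all 18 were tested, 10 had risen, 0 had fallen, and the median log2 change was 1.81. FKF1 (AT1G68050), a blue-light receptor F-box protein that in the afternoon helps to degrade repressors of flowering, was at 0.263, 0.409 and 0.328 CPM at 0 h. At 4 h it was at 62.1, 81.6 and 100.3 CPM. All 3 cold libraries lay far above all 3 warm ones, a 237-fold rise (log2 7.89, SE 0.966, edgeR adjusted p = 4.08e-07).

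PRR5 (AT5G24470), a pseudo-response regulator that represses the morning genes CCA1 and LHY, went from 0.745, 1.34 and 1.49 CPM to 133.1, 158.8 and 200.0 CPM. The groups did not overlap, and the rise was 136-fold (SE 0.968 on the log2 scale, edgeR adjusted p = 1.65e-06). ELF4 (AT2G40080), a subunit of the evening complex that represses growth and clock genes at night, was at 1.1, 2.04 and 1.82 CPM at 0 h and at 100.9, 118 and 103.6 CPM at 4 h. That 64.4-fold rise (log2 6.01, SE 0.881, edgeR adjusted p = 4.95e-06) came with rises of its partners. LUX, the DNA-binding subunit, rose 11.1-fold from 14.6, 7.53 and 13.4 CPM to 112.9, 140.0 and 140.3 CPM, and ELF3, the scaffold, rose 7.49-fold from at most 2.37 CPM to at least 7.25 CPM. TOC1, another pseudo-response regulator, rose 14.0-fold and was tight among libraries, with 4.52, 4.7 and 3.49 CPM before and 62.3, 59.4 and 56.4 CPM after. GI, which stabilises the FKF1 family and promotes flowering, rose 22.9-fold, from 1.1, 3.88 and 3.46 CPM to 43.9, 64.5 and 86.6 CPM. PRR3 rose too, from at most 0.292 CPM to at least 1.83 CPM, and LKP2, of the FKF1 family, by 1.80-fold. PRR7 was called at 3.90-fold, but its call was lost without the Exp1 or Exp3 libraries at 0 h or the Exp2 or Exp3 libraries at 4 h (edgeR adjusted p up to 0.153). The rest of the list was not called, among them PRR9 (log2 1.66, edgeR adjusted p = 0.0554), ZTL (0.11) and CDF1 (-1.04, edgeR adjusted p = 0.212). With the experiment number as a block PRR9 and CDF1 were called (edgeR adjusted p = 0.0177 and 0.0278).

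The morning loop held rises and a fall. Of 11 morning clock genes, 2 had risen and 1 had fallen, beside 10.3% called over all genes tested, with a median log2 change of 0.16. CCA1, a MYB-type repressor that peaks at dawn, was at 36.3, 113.1 and 63.6 CPM at 0 h and at 66.4, 113.5 and 160.3 CPM at 4 h, and LHY, its close relative, was at 125.8, 284.3 and 268.1 and then at 94.0, 147.2 and 168.8 CPM. In both genes the groups overlapped, with log2 changes of 0.67 and -0.73 (edgeR adjusted p = 0.43 and 0.15). RVE2, a related factor, rose 10.9-fold, and RVE7 rose 3.82-fold. RVE8, an activator of afternoon genes, fell 2.58-fold, from 31.7, 45.1 and 52.4 CPM to 11.7, 17.1 and 21.1 CPM (SE 0.286 on the log2 scale, edgeR adjusted p = 0.000713).

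COR27 (AT5G42900), a night-phased protein that acts in the clock and in freezing tolerance, stood beside the evening genes, at 1.01, 4.61 and 2.88 CPM before and 169.5, 210.9 and 226.7 CPM after (70.6-fold, SE 0.927 on the log2 scale, edgeR adjusted p = 7.72e-06); it was singled out after its values were seen. GRP7 (AT2G21660), a glycine-rich RNA-binding protein under clock control that acts as an RNA chaperone in the cold, rose 23.5-fold, from 79.3, 77.7 and 94.9 CPM to 2510, 1782 and 1617 CPM (SE 0.583 on the log2 scale, edgeR adjusted p = 6.97e-07). Its relative GRP8 rose 9.28-fold. GRP7 and FKF1 hold the evening element AAATATCT, a motif bound by CCA1, LHY and RVE proteins. The 250 bases before the annotated start of FKF1 (chr1:25508389-25508638, + strand) and GRP7 (chr2:9266558-9266807, - strand) in the RefSeq annotation of TAIR10.1 are shown because each holds more than 1 copy. They read 5′ to 3′ toward the gene, and capitals mark the motif on either strand (AGATATTT is its reverse complement).
FKF1: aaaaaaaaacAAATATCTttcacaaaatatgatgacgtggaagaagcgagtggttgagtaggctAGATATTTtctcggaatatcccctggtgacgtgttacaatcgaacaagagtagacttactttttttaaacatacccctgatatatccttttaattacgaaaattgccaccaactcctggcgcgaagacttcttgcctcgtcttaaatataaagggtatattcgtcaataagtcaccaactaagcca
GRP7: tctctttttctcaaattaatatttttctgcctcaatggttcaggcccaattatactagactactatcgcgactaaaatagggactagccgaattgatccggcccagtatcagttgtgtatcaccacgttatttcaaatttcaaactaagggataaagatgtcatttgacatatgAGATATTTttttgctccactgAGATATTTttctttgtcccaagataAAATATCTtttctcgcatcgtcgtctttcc
FKF1 holds 2 copies in these bases and GRP7 holds 3. The copies of GRP7 lie 76, 55 and 30 bases before the start, whereas those of FKF1 lie 240 and 186 bases before it. A match describes the letters and does not show that a factor binds there.

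Across all genes the evening element was far more frequent in the promoters of risen genes. In windows from 250 bases before to 50 bases after the start, searched on both strands, 20719 of the tested genes could be read and 5.95% held AAATATCT. The share was 25.0% among risen genes (293 of 1170), 2.93% among fallen genes (28 of 955) and 4.90% among genes not called. It rose with the number of copies: 4.50% of the genes with 0 copies had risen, 22.2% of those with 1 copy (258 of 1163) and 35 of the 70 with 2 or more, of which 0 had fallen. The CRT/DRE core CCGAC stood at 16.2% of all promoters, 23.0% of the risen and 12.3% of the fallen ones. Genes risen made up 10.2% of the promoters with 2 or more copies of CCGAC and 30.9% of the 188 promoters that held both motifs. The G-box CACGTG, which many bHLH and bZIP factors bind, differed little, at 10.0% of risen, 9.32% of fallen and 8.70% of all promoters. The telo-box AAACCCTA, frequent in promoters of ribosomal protein genes, was rarer in both called groups (3.68% and 1.78%) than among all (5.70%). AAATATCT and CCGAC cannot share a base, and of the other pairs CCGAC can share an end base with CACGTG, and AAATATCT with AAACCCTA. The evening element was as frequent or nearly so in other early sets of risen genes. Its share was 24.6% in C28P and 21.8% in C28PLT at 4 h, where CCGAC stood at 24.0% and 22.7%. Among genes risen in C35P, AAATATCT was in 28.8% at 2 h, 21.0% at 6 h, 15.2% at 12 h and 11.3% at 24 h. No test was run on these shares.

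**Figure D2:**
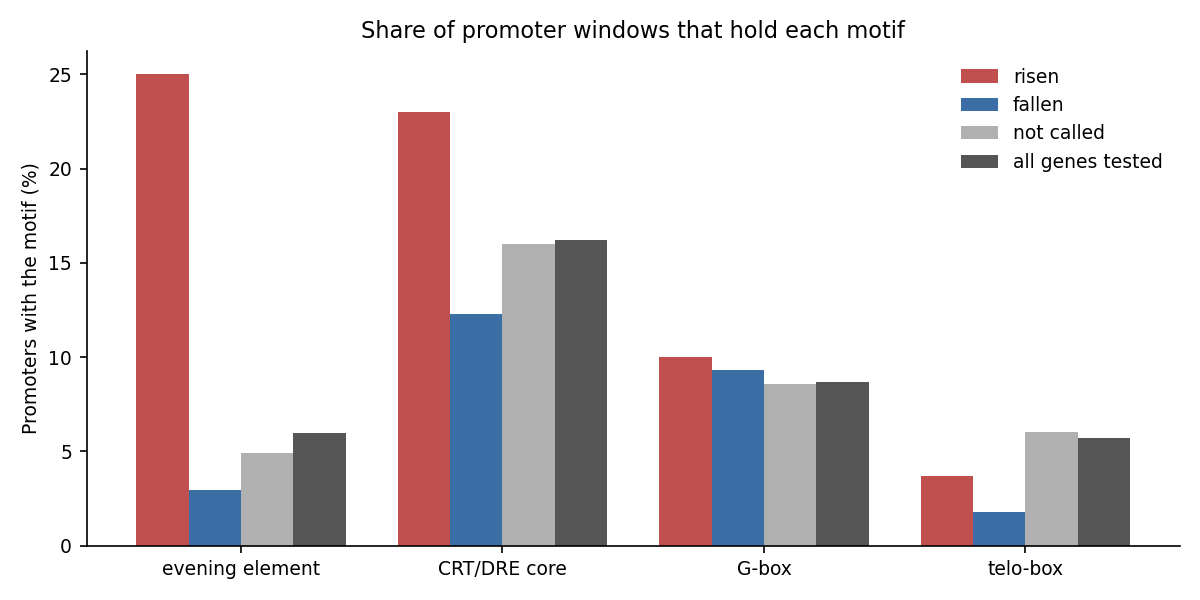
Bars give the percent of promoter windows that hold each of 4 motifs among risen, fallen, not called and all tested genes. The evening element (AAATATCT) is in 25.0% of risen against 5.95% of all promoters, and the CRT/DRE core (CCGAC) in 23.0% against 16.2%.

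Among the CBF genes, CBF3 (AT4G25480) rose most and was the only one of 6 CBF/DREB1 genes called. It was at 0.877, 4.32 and 2.73 CPM at 0 h and at 209, 184 and 338 CPM at 4 h, a 90.9-fold rise (log2 6.51, SE 0.931, edgeR adjusted p = 3.2e-06). CBF2 was at 11.7, 50.8 and 10.5 CPM before and 84.3, 138.2 and 251.9 CPM after, and CBF1 at 0.0877, 4.56 and 2.29 CPM before and 15.0, 19.5 and 33.6 CPM after. In both, every 4 h library was above every 0 h library, but the Exp2 library at 0 h was high, and neither passed the test (log2 2.70 and 3.26, edgeR adjusted p = 0.0635 and 0.0552). With the experiment number as a block both were called (edgeR adjusted p = 0.0403 and 0.0261), so 3 genes of the list had then risen, as they had without the Exp2 library at 0 h. CBF4, DDF1 and DDF2 were low, at up to 4.87 CPM in any library, and were not called. The median log2 change of the 6 genes was 2.30. The 3 CBF genes lie side by side as related copies, so some reads may have been assigned to the wrong copy. How alike the copies are was not measured.

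Genes known to act on CBF transcription were called about as often as all genes tested (10.3%). Of 20 such regulators, 1 had risen and 1 had fallen, with a median log2 change of 0.22. ICE1, the bHLH activator of CBF3, was at 50.6, 41.8 and 54.2 CPM before and 73.4, 40.8 and 46.4 CPM after (log2 0.13, edgeR adjusted p = 0.835). CRLK1, a calcium-regulated kinase of cold signalling, fell 2.91-fold, from 7.58, 6.66 and 7.9 CPM to 2.42, 2.48 and 2.71 CPM, with no overlap (SE 0.336 on the log2 scale, edgeR adjusted p = 0.00124). SOC1, a floral integrator that represses CBF genes, was called at 2.87-fold higher, but not without the Exp1 or Exp2 libraries at 0 h or the Exp2 or Exp3 libraries at 4 h (edgeR adjusted p up to 0.114). CAMTA3, HOS1, the MAP kinases MPK3, MPK4 and MPK6, and PIF3 and PIF7 were not called, with log2 changes between -0.09 and 0.93.

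Other transcription factors known to respond early to cold were split. Of 20 on the list, 6 had risen and 1 had fallen, with a median log2 change of 0.43. RAV1, an AP2/B3 factor, rose 6.45-fold, from 83.6, 77.3 and 22.1 CPM to 314.4, 425.3 and 440.1 CPM (SE 0.448 on the log2 scale, edgeR adjusted p = 3.55e-05). CRF3, a cytokinin response factor that shapes root growth in the cold, rose 11.3-fold, and DEAR1, a DREB-type repressor, rose 29.4-fold. DREB2A, the factor of drought and heat responses, rose from at most 0.38 CPM to at least 4.25 CPM, and DREB2B from at most 0.117 CPM to at least 4.08 CPM. The list's sixth riser, the zinc-finger factor ZAT6, was called at 4.67-fold but lost its call without the Exp1 or Exp3 libraries at 0 h or the Exp2 or Exp3 libraries at 4 h (edgeR adjusted p up to 0.233). ERF104, an ethylene response factor, fell 7.87-fold (edgeR adjusted p = 0.000812), although in Exp3 it stood at 6.08 CPM before and 7.5 CPM after, so the groups overlapped.

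Several members of this list were as high in warm as in cold plants. ZAT12, a zinc-finger factor of cold and oxidative stress, was at 55.9, 110.2 and 34.7 CPM at 0 h and at 20.9, 49.2 and 44.7 CPM at 4 h, and ZAT10, a related repressor, was at 94.3, 165.0 and 23.0 CPM and then at 61.3, 120.9 and 100.1 CPM. Their groups overlapped and neither was called (edgeR adjusted p = 0.543 and 1.0). Within this list the median change differed between experiments: it was -0.22 and -0.23 on the log2 scale in Exp1 and Exp2 and 2.28 in Exp3, where several of the genes were low at 0 h.

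The COR genes and their late-embryogenesis-abundant (LEA) relatives rose as a group. Of 19 on the list, 18 were tested, 12 had risen, 0 had fallen, and the median log2 change was 2.41, with medians of 2.42, 2.82 and 2.32 in the 3 experiments. RD29A (AT5G52310), a hydrophilic protein and the best-known CBF target, was at 11.2, 30.2 and 27.6 CPM at 0 h and at 334.5, 837.8 and 856.3 CPM at 4 h. The rise was 29.4-fold (log2 4.88, SE 0.739, edgeR adjusted p = 8.1e-06), with Exp1 lowest in both groups. LTI30 (AT3G50970), a dehydrin that binds membranes, rose 38.4-fold, from 3.46, 11.8 and 11.5 CPM to 162.5, 450.6 and 416.7 CPM. COR15A and COR15B, which protect chloroplast membranes during freezing, rose 7.21-fold and 18.4-fold. COR15A was at 159.8, 327.3 and 573.0 CPM before and at 1485, 2831 and 3327 CPM after. COR15B was at 14.6, 46.3 and 61.1 CPM and then at 540.5, 861.3 and 843.8 CPM, and neither gene had overlapping groups. COR47 (13.0-fold) and ERD10 (7.88-fold), both acidic dehydrins, COR413-PM1 (8.21-fold), a membrane protein, and COR413IM1 (5.68-fold), of the chloroplast inner envelope, rose too. So did KIN2 (4.79-fold), ERD7 (10.9-fold) and LEA14 (4.94-fold). KIN1 rose 4.07-fold, a call that was lost without the Exp1 library at 0 h or the Exp3 library at 4 h (edgeR adjusted p up to 0.117). COR15A and COR15B, and KIN1 and KIN2, are related neighbours, so some of their reads may be mixed. How alike their sequences are was not measured.

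The COR list was not uniform. RAB18, a dehydrin that responds to abscisic acid, was at 14.0, 16.3 and 21.2 CPM before and 13.1, 16.4 and 23.1 CPM after (log2 0.03, edgeR adjusted p = 0.973), RD29B did not exceed 1.83 CPM in any library, and LEA4-5 had a log2 change of -0.64 (edgeR adjusted p = 0.756). ERD14, another dehydrin, was at 634.8, 581.2 and 789.2 CPM before and 586.0, 1265 and 1339 CPM after, with overlapping groups. The galactinol synthase GOLS3 behaved like the COR genes and its promoter is shown with theirs. The 250 bases before the start of RD29A (chr5:21240467-21240716, + strand), LTI30 (chr3:18940393-18940642, + strand) and GOLS3 (chr1:3019389-3019638, + strand), from the same annotation, each hold more than 1 copy of the CRT/DRE core. Capitals mark CCGAC or its reverse complement GTCGG.
RD29A: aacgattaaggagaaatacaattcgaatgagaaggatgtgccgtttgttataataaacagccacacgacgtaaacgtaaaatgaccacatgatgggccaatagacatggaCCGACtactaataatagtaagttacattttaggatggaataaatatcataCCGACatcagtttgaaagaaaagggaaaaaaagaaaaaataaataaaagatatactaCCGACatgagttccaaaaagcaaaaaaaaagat
LTI30: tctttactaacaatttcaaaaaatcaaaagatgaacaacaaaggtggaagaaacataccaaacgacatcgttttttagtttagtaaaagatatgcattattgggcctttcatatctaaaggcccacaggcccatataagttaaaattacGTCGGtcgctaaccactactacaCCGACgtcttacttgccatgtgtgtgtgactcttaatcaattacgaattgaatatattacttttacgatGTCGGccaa
GOLS3: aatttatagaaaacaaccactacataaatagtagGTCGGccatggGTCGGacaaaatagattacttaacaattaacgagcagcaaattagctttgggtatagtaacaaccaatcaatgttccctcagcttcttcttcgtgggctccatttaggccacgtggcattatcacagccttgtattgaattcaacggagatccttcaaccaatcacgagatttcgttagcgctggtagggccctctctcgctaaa
RD29A and LTI30 hold 3 copies here and GOLS3 holds 2. In RD29A they lie 140, 90 and 33 bases before the start, all on the gene's own strand, and in GOLS3 216 and 205 bases before it, both on the other strand. Over the window used for the shares, 8 of the 18 COR and LEA genes tested held CCGAC and 4 held AAATATCT, and of the 18 day and evening clock genes tested 5 and 7 did.

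**Figure D3:**
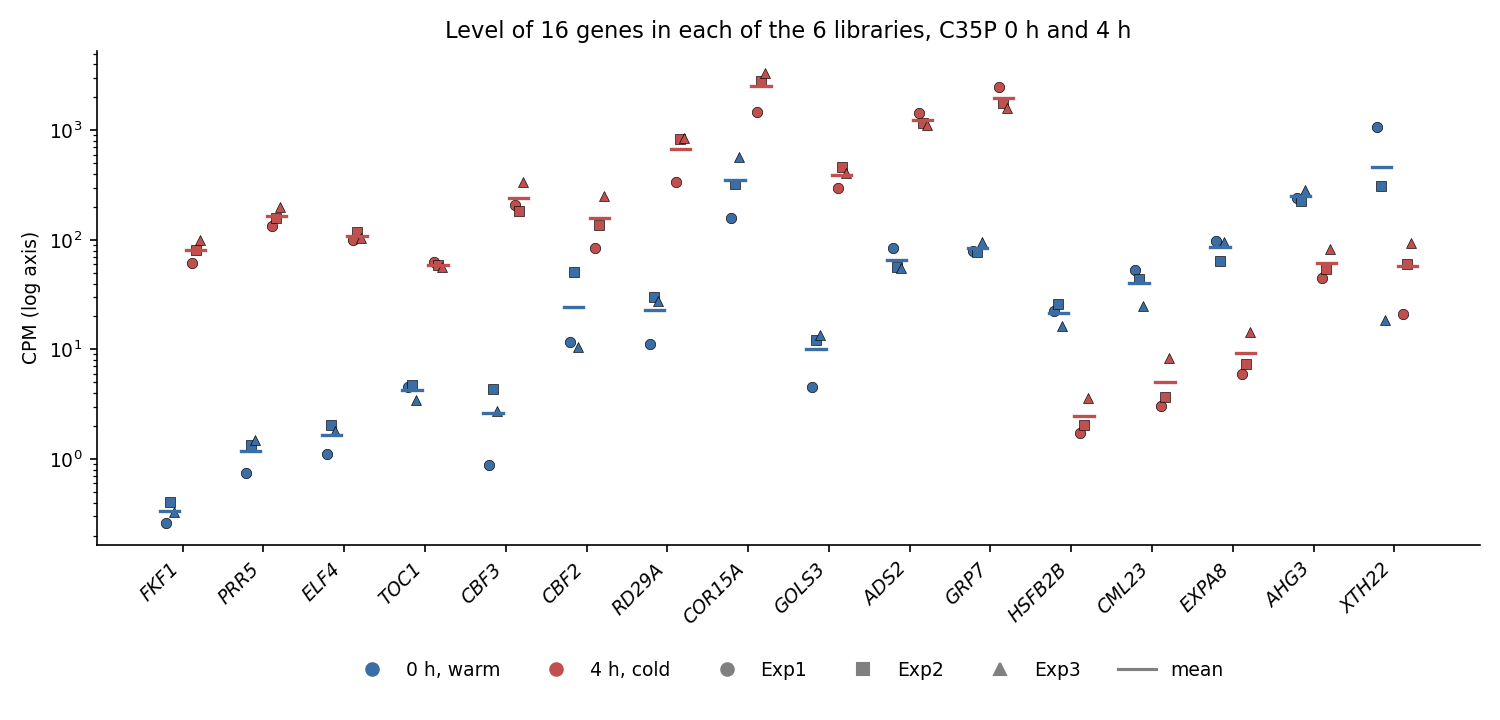
Points give the CPM (log axis) of 16 genes in each of the 6 libraries, blue at 0 h in the warm and red at 4 h in the cold, with symbols for the 3 experiments and lines for the group means. The evening clock genes start near or below 5 CPM and the 4 h libraries of FKF1 lie at 62.1 to 100.3 CPM, whereas XTH22 overlaps between groups because its 0 h libraries run from 18.7 to 1071 CPM.

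Of 18 tested genes for raffinose sugars, sucrose and starch breakdown, 6 had risen and 1 had fallen, with a median log2 change of 0.49. GOLS3 (AT1G09350), which makes galactinol, the donor of raffinose synthesis, was at 4.56, 12.3 and 13.5 CPM before and 296.0, 458.5 and 412.2 CPM after, a 38.3-fold rise (SE 0.845 on the log2 scale, edgeR adjusted p = 2.09e-05). Its relatives GOLS1 and GOLS2, known from heat and drought, were not called, at log2 changes of -0.68 and -1.47. RS5, a raffinose synthase, rose 3.88-fold and the sucrose synthase SUS1 rose 7.11-fold, from 10.7, 18.7 and 20.1 CPM to 54.9, 125.3 and 171.9 CPM. In starch breakdown, SEX1, the glucan water dikinase that starts it, rose 7.10-fold, from 3.99, 12.5 and 5.17 CPM to 44.1, 52.0 and 58.4 CPM, and the chloroplast alpha-amylase AMY3 rose 4.09-fold. DPE2, which handles maltose, was called at 2.76-fold higher but lost the call without any 1 of 5 libraries, all but the Exp2 library at 0 h (edgeR adjusted p up to 0.182). The beta-amylase BAM1 was called at 1.87-fold lower but not without the Exp2 or Exp3 libraries at 0 h or the Exp1 or Exp2 libraries at 4 h (edgeR adjusted p up to 0.194), and BAM3, the main leaf beta-amylase, was not called (log2 -0.12).

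Of 5 proline genes, 0 had risen and 1 had fallen, beside 10.3% called over all genes tested, with a median log2 change of -0.17. P5CS1, the stress-regulated step of proline synthesis, was at 32.7, 115.4 and 112.1 CPM before and 28.6, 40.9 and 121.7 CPM after (log2 -0.44, edgeR adjusted p = 0.649). The next enzyme, P5CR, was the one called, at 1.75-fold lower. That call was lost without the Exp2 or Exp3 libraries at 0 h or the Exp2 or Exp3 libraries at 4 h (edgeR adjusted p up to 0.142).

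Of 12 genes of membrane lipids, 3 had risen and 0 had fallen, beside 10.3% called over all genes tested. The median log2 change was 0.12. ADS2, a desaturase needed for growth in the cold, rose 19.0-fold, from 83.7, 57.1 and 55.7 CPM to 1444, 1165 and 1121 CPM (log2 4.25, SE 0.507, edgeR adjusted p = 3.06e-07). DGAT1, which makes storage triacylglycerol, rose 21.3-fold, from 1.27, 1.9 and 1.82 CPM to 38.4, 37.7 and 31.1 CPM, and SLD1, a sphingolipid desaturase, rose 3.68-fold. These 3 calls held whichever library was left out. None of the fatty acid desaturases FAD2 to FAD8 was called; their log2 changes lay between -0.32 and 0.57. SFR2, the galactolipid-remodelling enzyme of freezing tolerance, was not called either (log2 -0.30).

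Of 14 genes for ribosome assembly and RNA chaperones, 5 had risen and 0 had fallen, with a median log2 change of 0.69. GRP7 and GRP8, described above, were the only 2 of the 5 that were called whichever library was left out. The nucleolin NUC-L1 was called at 2.72-fold higher, with 126.2, 133.6 and 120.8 CPM before and 502.2, 306.8 and 227.3 CPM after, but not without any 1 of the 0 h libraries or the Exp1 library at 4 h (edgeR adjusted p up to 0.166). APUM24, an rRNA-processing factor, lost its call without the Exp1 or Exp3 libraries at 0 h or the Exp1 or Exp2 libraries at 4 h (edgeR adjusted p up to 0.184), and the cold shock protein CSP1 without the Exp3 library at 0 h or the Exp1 library at 4 h (edgeR adjusted p up to 0.155). The list's count fell to 2 without the Exp3 library at 0 h or the Exp1 library at 4 h.

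Of 21 genes for light-harvesting proteins and Rubisco, 0 had risen and 1 had fallen, a share near the 4.61% fallen over all genes tested, with a median log2 change of -0.26. LHCB4.2, a minor antenna protein of photosystem II, fell 1.77-fold, from 4561, 3292 and 3858 CPM to 2406, 1726 and 2496 CPM, a call lost without the Exp1 or Exp3 libraries at 0 h or the Exp1 or Exp2 libraries at 4 h (edgeR adjusted p up to 0.205). RBCS1A, the main small subunit of Rubisco, was at 46693, 29715 and 37614 CPM before and 34948, 27794 and 30162 CPM after and was not called (edgeR adjusted p = 0.575). The RBCS and LHCB1 copies may share reads. ELIP1, a light-stress protein of thylakoids, rose 5.08-fold, from 26.5, 28.8 and 62.0 CPM to 269.6, 164.7 and 162.1 CPM (SE 0.477 on the log2 scale, edgeR adjusted p = 0.000538). ELIP2 was called at 4.56-fold higher but not without the Exp1 library at 4 h (edgeR adjusted p = 0.136). They were the 2 of 6 photoprotection genes called, beside 10.3% called over all genes tested. The count was 1 without that library and 3 without the Exp2 library at 0 h, and the list had a median log2 change of 0.39.

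In flavonoid synthesis the largest rises called were those of MYB111 and MYB12, regulators of flavonols. Of 19 genes, 4 had risen and 0 had fallen, beside 10.3% called over all genes tested, with a median log2 change of 0.36. MYB111, which drives flavonol synthesis, rose 13.6-fold, from 4.47, 2.37 and 3.35 CPM to 69.1, 39.0 and 29.8 CPM (SE 0.521 on the log2 scale, edgeR adjusted p = 1.87e-06), and MYB12, its relative, rose 6.44-fold from at most 0.546 CPM to at least 1.68 CPM. MYB11, another MYB factor on the list, was not called. PAL2, at the entry to the pathway, rose 2.89-fold. FLS1, the flavonol synthase, was called at 2.17-fold higher with overlapping groups, and not without the Exp1 or Exp2 libraries at 0 h or the Exp1 library at 4 h (edgeR adjusted p up to 0.327). The enzymes TT4, F3H, DFR and LDOX and the anthocyanin regulators PAP1, MYB90 and TT8 were not called, with log2 changes between -1.39 and 0.96. The list's median change was 1.89 in Exp1, 0.09 in Exp2 and -0.38 in Exp3.

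Some heat shock factors fell. Of 13 heat shock genes tested, 4 had fallen and 0 had risen, beside 10.3% called over all genes tested. The median log2 change was -0.65, with medians of -1.13, -0.97 and -1.12 in the 3 experiments. HSFB2B, a repressor-type heat shock factor, was at 22.3, 26.0 and 16.3 CPM before and 1.73, 2.06 and 3.63 CPM after, an 8.70-fold fall (log2 -3.12, SE 0.413, edgeR adjusted p = 1.03e-06). HSFB2A fell 6.12-fold, and HSFA2, an activator of heat acclimation, fell 18.9-fold from 1.93, 14.1 and 9.57 CPM to 0.104, 0.501 and 0.74 CPM. The chaperone HSP101 was called at 2.97-fold lower with overlapping groups, and not without the Exp2 library at 0 h or the Exp1 or Exp3 libraries at 4 h (edgeR adjusted p up to 0.423).

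Of 22 genes of growth and auxin, 3 had risen and 3 had fallen, beside 10.3% called over all genes tested. The median log2 change was 0.00. EXPA8, a wall-loosening expansin, fell 9.37-fold, from 97.8, 64.4 and 96.6 CPM to 5.91, 7.4 and 14.3 CPM (SE 0.624 on the log2 scale, edgeR adjusted p = 0.00028). IAA14, an auxin response repressor, fell 2.70-fold, and EXPA3 was called at 2.06-fold lower but not without the Exp3 library at 0 h (edgeR adjusted p = 0.0663). The 3 risers, HY5, IAA29 and SAUR9, each lost the call without 3 to 5 of the libraries, and 0 of the list had risen without the Exp1 library at 0 h, the Exp2 library at 0 h or the Exp2 library at 4 h (1 without the Exp3 library at 4 h). PIF4 and PIF5, the growth-promoting bHLH factors, were lower in all 3 experiments but not called (log2 -0.69 and -0.75, edgeR adjusted p = 0.0862 and 0.0663). PIF5 was called with the block (edgeR adjusted p = 0.0393). Of 15 gibberellin genes tested, 2 had risen and 3 had fallen, beside the same 10.3%. GA2OX1, which inactivates gibberellin, rose 8.60-fold, from 0.614, 0.964 and 1.6 CPM to 12.2, 4.27 and 11.1 CPM, and GA2OX8, of the same family, rose from at most 0.263 CPM to at least 0.775 CPM. The DELLA repressor GAI fell 2.04-fold, and the biosynthetic gene GA3OX1 and the DELLA gene RGL2 were called lower, without holding when the Exp2 library at 4 h was left out (edgeR adjusted p up to 0.0716; for GA3OX1 also the Exp3 library at 0 h).

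Of 17 abscisic acid genes tested, 2 had risen and 5 had fallen, beside 10.3% called over all genes tested. The median log2 change was -0.19. AHG3, a phosphatase that restrains abscisic acid signalling, fell 4.11-fold, from 240.5, 227.3 and 286.1 CPM to 45.3, 54.8 and 83.4 CPM (SE 0.441 on the log2 scale, edgeR adjusted p = 0.00109). CYP707A2, which breaks down abscisic acid, rose by 2.07 on the log2 scale. The other 5 calls, falls of ABA2, HAB1, HAI1 and ABF3 and a rise of ABI1, each depended on 1 to 4 of the libraries, with edgeR adjusted p up to 0.278 when one was left out. Without the Exp2 library at 4 h the list kept 1 risen and 1 fallen gene, and 2 had fallen without the Exp3 library at 0 h or the Exp1 library at 4 h and 3 without the Exp2 library at 0 h. NCED3, the stress-regulated step of abscisic acid synthesis, was not called (log2 0.63, edgeR adjusted p = 0.413).

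Among touch and calcium-responsive genes the 0 h libraries differed strongly. Of 9 genes, 4 had fallen and 0 had risen, with a median log2 change of -1.81. In Exp1 the median was -4.09, in Exp2 -0.78 and in Exp3 0.57. TCH2, a calmodulin-like protein induced by touch, was at 717.2, 332.3 and 133.1 CPM before and 31.9, 54.4 and 67.9 CPM after, a 7.67-fold fall (edgeR adjusted p = 0.000132). CML23, a related calcium sensor, was steadier, at 53.0, 43.8 and 25.0 CPM and then at 3.04, 3.71 and 8.28 CPM (8.10-fold lower, edgeR adjusted p = 0.000218). XTH22, a wall enzyme that is a classic touch gene, was at 1071, 313.8 and 18.7 CPM at 0 h and at 20.9, 59.7 and 93.2 CPM at 4 h. It fell in Exp1 and Exp2 and was higher at 4 h in Exp3, and its call was lost without the Exp1 library at 0 h or the Exp1 or Exp2 libraries at 4 h (edgeR adjusted p up to 0.389). XTR6, a wall enzyme of the same family, was called through the Exp1 library at 0 h, at 65.8 CPM against 6.04 and 2.29 CPM in the others, and not without it (edgeR adjusted p = 0.668). Without that library 2 genes of the list had fallen. The summed level of the 9 genes ran from 397.2 to 2448 CPM at 0 h and from 324.1 to 558.7 CPM at 4 h. The part of handling in these values was not tested.

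**Figure D4:**
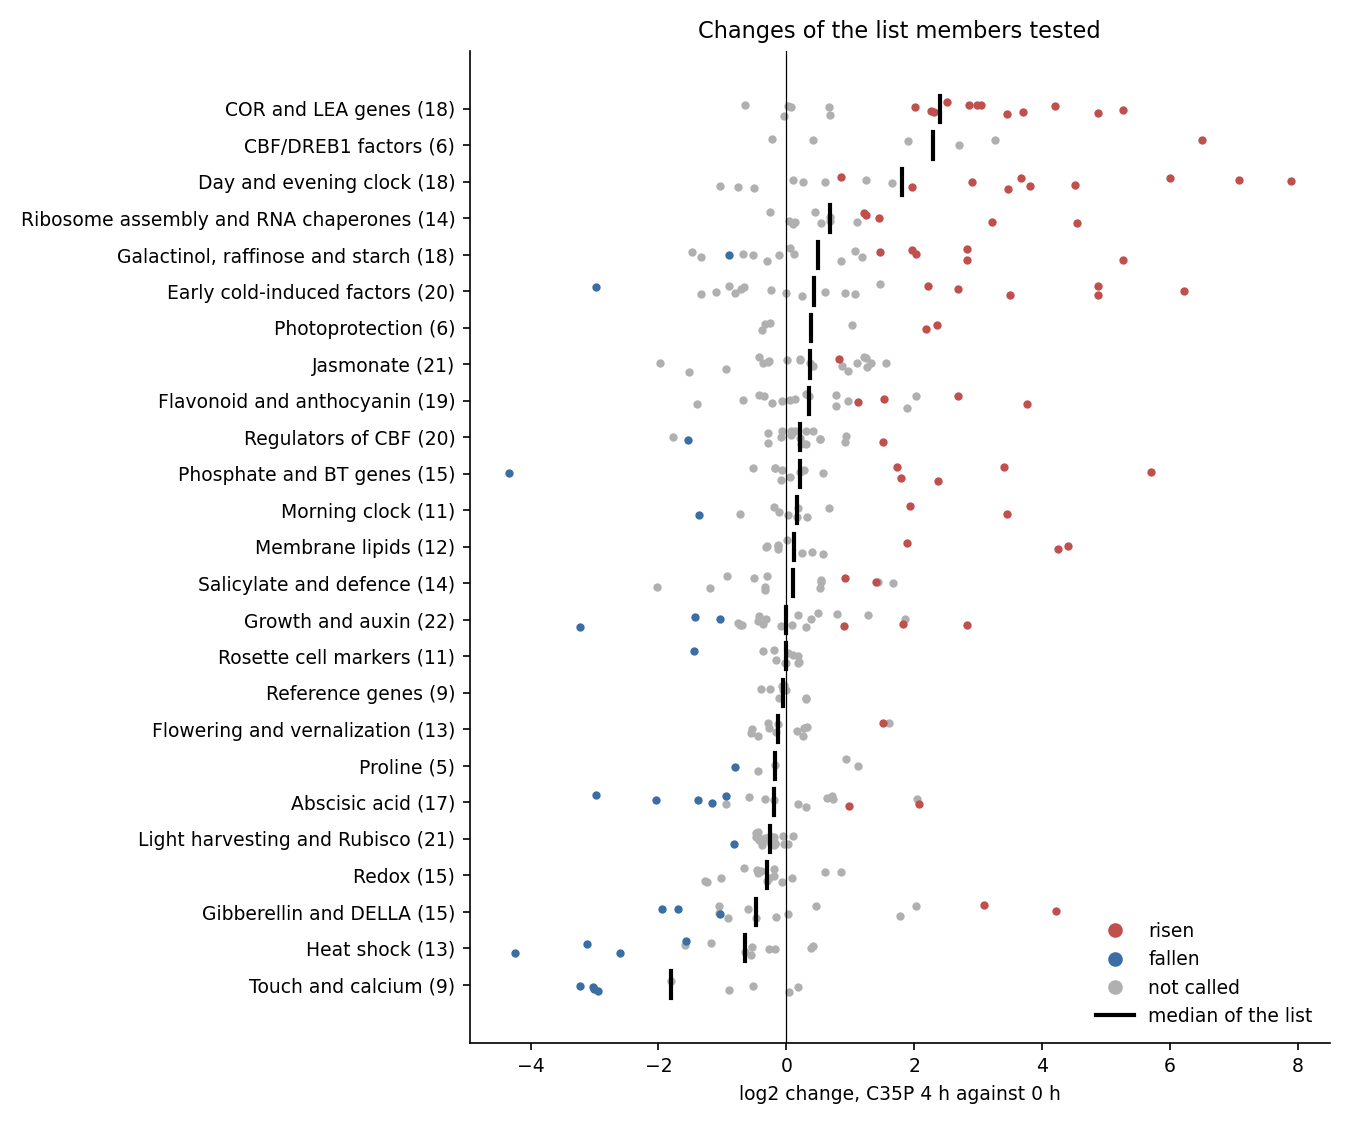
Each point is the log2 change of 1 tested gene on a list (red risen, blue fallen, grey not called), black bars are list medians, and the number of tested genes follows each name. The COR, CBF and evening clock lists have medians of 2.41, 2.30 and 1.81, and touch genes have the lowest at -1.81.

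Beyond the lists, the 12 risen genes with the largest change among those with at least 5 CPM in a group included FKF1, PRR5 and CBF3. AT4G33980, named an uncharacterized protein in the RefSeq annotation used here, rose 243-fold, from 0.438, 0.38 and 0.4 CPM to 85.0, 100.2 and 112.8 CPM (SE 1.02 on the log2 scale, edgeR adjusted p = 7.56e-07). AT5G62360, annotated as an invertase or pectin methylesterase inhibitor, went from 1.67, 5.75 and 2.73 CPM to 540.1, 798.7 and 697.6 CPM, and AT5G17460, annotated as a glutamyl-tRNA amidotransferase subunit, from 4.82, 12.0 and 15.2 CPM to 486.1, 969.3 and 1098 CPM. AT1G56300, with a DnaJ chaperone domain, rose 108-fold, and AT1G70640, with a PB1 domain, rose 89.0-fold. The terpene synthase TPS03, DREB2C, AT3G51400 and AT1G10770 were at most 0.175 CPM in any 0 h library and at least 4.47 CPM in every 4 h library, so their fold changes rest on a few reads at 0 h. All 12 were called whichever library was left out.

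The 12 strongest falls held several genes whose 0 h level was lowest in Exp3. AT1G22190, an AP2-type DNA-binding protein, fell 16.9-fold, from 316.8, 179.4 and 69.1 CPM to 4.87, 9.73 and 18.8 CPM (SE 0.67 on the log2 scale, edgeR adjusted p = 2.88e-05). AT4G27280, a calcium-binding EF-hand protein, was at 604.7, 401.3 and 66.1 CPM before and 8.29, 26.4 and 35.0 CPM after. BT5, a BTB and TAZ domain protein, fell 20.3-fold, from 20.6, 21.8 and 13.3 CPM to 0.726, 0.442 and 1.59 CPM, and AT3G09870, a SAUR-like gene, fell 20.7-fold. HSFA2 was also among the 12, as were AT1G72240, AT5G05250, AT3G50800 and the MATE transporter AT5G52050. The other 3 were not stable: ORA47, an AP2-type factor, lost its call without the Exp2 library at 0 h or the Exp1 library at 4 h (edgeR adjusted p up to 0.071), AT1G30250 without the Exp1 or Exp2 libraries at 4 h (up to 0.057), and AT4G27654 without any library but the 0 h one of Exp3 (up to 0.171).

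Of the 11 rosette cell markers, CER6, an epidermal wax enzyme, was the only one called, falling 2.71-fold from 320.8, 415.0 and 540.0 CPM to 150.6, 142.2 and 178.2 CPM (edgeR adjusted p = 7.29e-05). The guard cell, phloem and other epidermal markers had log2 changes between -0.37 and 0.20. In whole rosettes, fewer cells of a type and less RNA per cell cannot be told apart. All 9 reference genes were not called, with a median log2 change of -0.05, and ACT2 stood at 408.7, 466.0 and 436.8 CPM before and 384.9, 500.3 and 426.3 CPM after.

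Set in the time course of the same plants, 4 h fell between an early and a late pattern. All times were compared with the same 0 h libraries, so they are given side by side only. At 2 h 407 genes were called (1.96%), at 6 h 3625 (17.5%), at 12 h 5200 (25.1%) and at 24 h 5958 (28.8%). The genes risen at 4 h had median log2 changes of 0.93 at 2 h, 1.79 at 4 h, 2.07 at 6 h, 1.69 at 12 h and 1.26 at 24 h. Those fallen had medians of -0.70, -1.37, -1.62, -1.48 and -1.28. CBF3 was highest at 2 h, with 213.5, 356.8 and 520.9 CPM, and a mean of 363.8 CPM against 243.5 CPM at 4 h and 23.9 CPM at 24 h. The libraries of 2 h and 4 h overlapped.

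FKF1 and PRR5 had their highest means at 6 h and 4 h and were lower by 12 h. The whole list of day and evening clock genes had median log2 changes of 1.81 at 4 h, 2.03 at 6 h, 2.81 at 12 h and 1.63 at 24 h. FKF1 had means of 20.5, 81.3, 103.6, 20.9 and 7.48 CPM at 2, 4, 6, 12 and 24 h, and PRR5 had 86.4, 164.0, 151.0, 22.1 and 14.9 CPM. At 24 h, the one time that shares its time of day with 0 h, FKF1 was at 4.23, 5.7 and 12.5 CPM, still above its 0 h libraries. COR genes went on rising. COR15A had means of 353.4 CPM at 0 h, 2548 CPM at 4 h and 15919 CPM at 24 h, where Exp1 was at 6538 CPM and Exp2 and Exp3 at 21083 and 20137 CPM. RD29A was highest on average at 12 h (1395 CPM), and GRP7 too (7145 CPM). ADS2 was highest at 6 h, with a mean of 1893 CPM against 1244 CPM at 4 h. HSFB2B was at 21.5 CPM at 0 h on average, at 3.22 CPM by 2 h and at 2.47 CPM at 4 h. Its means of 11.0 CPM at 12 h and 8.72 CPM at 24 h stayed below that of 0 h.

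**Figure D5:**
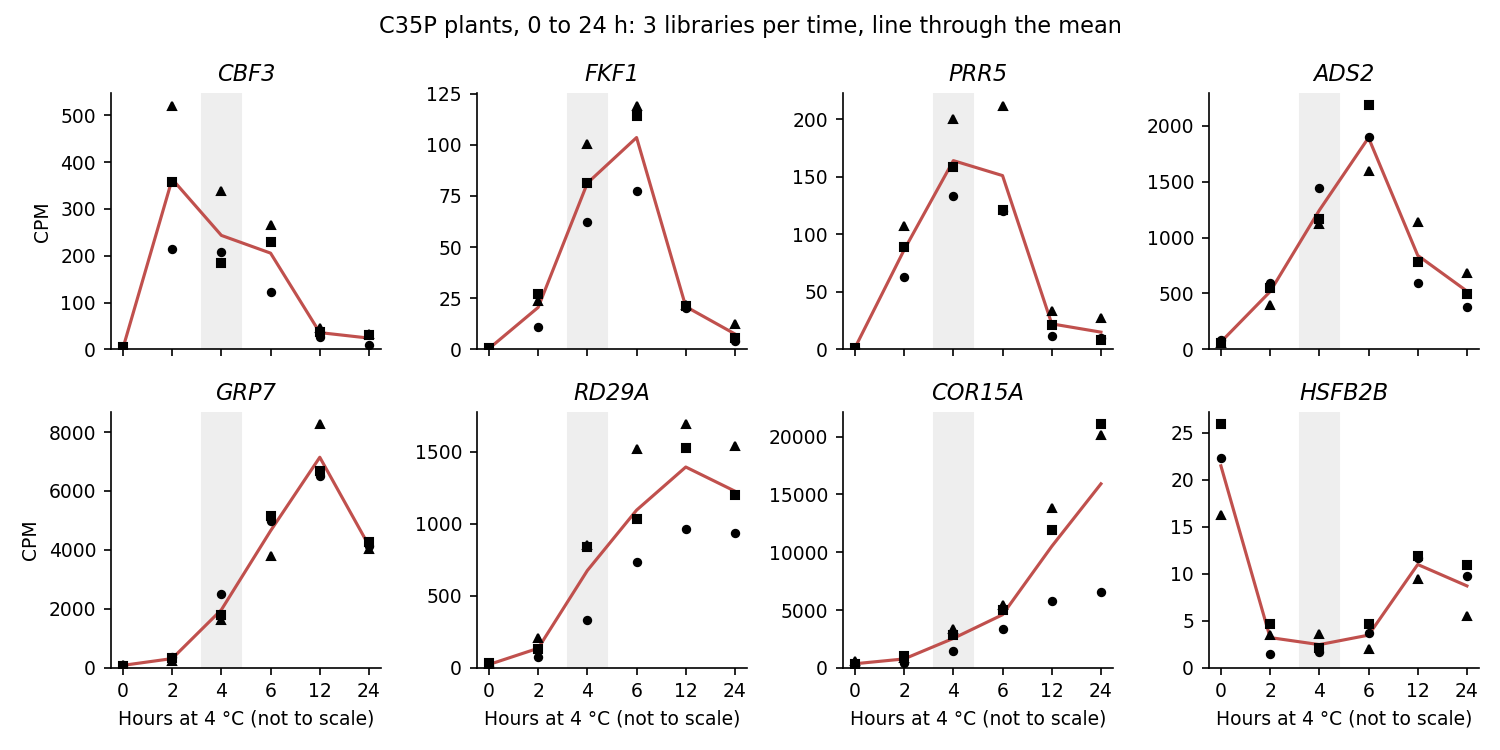
CPM of 8 genes over hours at 4 °C in C35P plants, with 3 libraries as symbols (circle Exp1, square Exp2, triangle Exp3) and a line through the means; the x axis is not to scale and 4 h is shaded. CBF3 is highest on average at 2 h, FKF1 at 6 h and COR15A at 24 h.

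To ask whether age mattered, the response at 4 h was compared with the first cold of 28-day plants, in which 1640 genes were called at 4 h (7.92%). One library of that group stood apart. The C28P 0 h library of Exp1, labelled as warm, had FKF1 at 37.9 CPM against 0.644 and 0.619 CPM in Exp2 and Exp3, RD29A at 278.0 against 18.2 and 24.6 CPM, and GRP7 at 1000.3 against 67.6 and 117.8 CPM. Its levels of these 3 genes, which rise in the cold, lay far above those of the other C28P 0 h libraries. Genes that fall in the cold were mixed in it. EXPA8 was at 59.4 CPM against 62.0 and 64.3 CPM in Exp2 and Exp3. HSFB2B was at 14.7 against 27.0 and 23.3 CPM, and AHG3 at 94.6 against 235.6 and 232.8 CPM. The difference in response of each gene named below is therefore given with and without this library. The test of the difference between both responses called 0 of 20720 genes (0%, smallest edgeR adjusted p = 0.387), with 262 genes at an unadjusted p under 0.05 and 2 called by DESeq2, FKF1 and AT1G17665. Over the called genes the median SE of a difference was 0.514 on the log2 scale. FKF1 had a log2 change of 7.89 at 35 days and 2.67 at 28 days, a difference of 5.22 (SE 1.1). Without the C28P 0 h library of Exp2 or that of Exp3 the test called 6 genes, FKF1 and PRR5 among them, and without that of Exp1 it called 0. Without the Exp1 library the difference in FKF1 was 0.86 (SE 0.736). At 4 h itself FKF1 overlapped between ages, at 62.1, 81.6 and 100.3 CPM in C35P and 81.0, 109.3 and 59.7 CPM in C28P. RD29A had log2 changes of 4.88 and 2.23, a difference of 2.64 (SE 0.903) with that library and 0.32 (SE 0.747) without it. For CBF3 the difference was 3.24 (SE 1.07) with it and -0.09 (SE 0.861) without, for PRR5 4.47 (SE 1.11) and -0.19 (SE 0.728), and for GRP7 2.14 (SE 0.72) and 0.05 (SE 0.526). None of these was called either way. Among falling genes HSFB2B (-3.12 and -3.75), EXPA8 (-3.23 and -3.09) and AHG3 (-2.04 and -1.97) had differences of 0.63 (SE 0.549), -0.14 (SE 0.815) and -0.07 (SE 0.6), and of 0.84 (SE 0.571), -0.11 (SE 0.874) and 0.25 (SE 0.613) without that library. Levels at 4 h, where time of day is shared, differed between both ages in 0 genes by edgeR (smallest adjusted p = 1.0, 251 genes at an unadjusted p under 0.05) and in 0 by DESeq2.

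Against the second cold of C28PLT plants, in which 2638 genes were called at 4 h (12.7%), the test of the difference also called 0 genes (smallest edgeR adjusted p = 0.282), with 436 at an unadjusted p under 0.05 and 9 called by DESeq2. PRR5 had log2 changes of 7.08 in the first and 8.44 in the second cold (difference 1.36, SE 1.15), CBF3 of 6.51 and 6.92 (0.41, SE 1.06) and COR15A of 2.85 and 2.39 (-0.46, SE 0.655). CBF2 had 2.70 and 4.69 (1.99, SE 1.28). The 9 genes called by DESeq2 included XTH22 and XTR6 of the touch list, AT5G52050 of the strongest falls, and the wall gene XTH33. PHI-1 was also among the 9. XTH33 and PHI-1 were chosen after their values were seen. PHI-1, a phosphate-induced gene by its annotation, was at 1648, 244.4 and 7.94 CPM at 0 h in C35P and at 10.8, 5.23 and 9.61 CPM at 0 h in C28PLT, while at 4 h it was at 15.0, 55.7 and 108.8 against 70.3, 51.0 and 236.1 CPM. The 3 C35P libraries at 0 h thus ran from 7.94 to 1648 CPM, and those of C28PLT from 5.23 to 10.8 CPM. Without the C35P 0 h library of Exp3 the test called 39 genes.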

How the data were processed

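Total RNA of whole rosettes was sequenced from libraries made with a directional kit, per the labels' protocols. Trimmomatic, STAR 2.7.9a, DESeq2 and the TAIR10 build are named in the submitters' processing notes. Which annotation release was used, how strand entered the counting and how reads with several matches were treated is not given in the sources used here. The deposited values are raw read counts per gene, made by the authors, for 36632 genes in 54 libraries, and 0 columns lacked a sample.

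Genes were filtered with filterByExpr (minimum count 10), which left 20720, scaled by TMM and fitted with edgeR 4.0.16 (robust quasi-likelihood, R 4.3.3), with 1 coefficient for each of 18 groups and 36 residual degrees of freedom. P-values were adjusted by Benjamini-Hochberg over all genes tested. They measure the spread between libraries of 3 independent experiments. DESeq2 1.42.0 and the settings under the closing section were alternatives. The experiment number is shared across groups, per the labels. Between C35P at 4 h and 0 h, deviations of same-numbered libraries correlated at 0.376, 0.398 and -0.00228, against -0.472 to 0.204 for other pairs. Between C35P at 4 h and C28PLT at 0 h, same-numbered libraries correlated at -0.375, -0.287 and -0.0766, and other pairs at up to 0.411. By these values the number did not pair libraries in every group. Deviations were taken from means of 3 libraries, so these correlations are not independent of each other.

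Replicates differed by at least 38.19 in chi-square per degree of freedom, so none was a duplicate. On simulated data for the comparison of C35P at 4 h with 0 h (20507 genes), 33 of 100 genes changed 2-fold and 89 of 100 changed 4-fold were recovered, with 5 false calls. The changed genes were drawn from those with a mean of at least 5 CPM. The simulated libraries held no pairing by experiment and no trend with transcript length, so recovery in the real data may differ.

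Genes named beyond the 27 lists are the 12 per direction with the largest change among called genes that average 5 CPM or more in either group and move the same way in all 3 experiments. COR27 and the genes of the response differences were chosen after their values were seen. Members and lists were chosen with earlier results of these data known. Promoters were read from the RefSeq TAIR10.1 genome and annotation. Tables and figures were made with pandas 2.3.3 and matplotlib 3.10.9.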

Additional observations from a re-analysis of the deposited data

Results flagged for a closer look

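GOLS1, a galactinol synthase known from heat and drought, moved in opposite directions in the first and the second cold. It was at 21.2, 118.5 and 57.9 CPM at 0 h and at 19.3, 74.9 and 29.4 CPM at 4 h in C35P plants, lower in 3 of 3 experiments (log2 -0.68), and higher in 3 of 3 experiments in C28PLT plants (log2 0.50). It stood out because every experiment of one group moved one way and every experiment of the other the opposite way. The difference of 1.18 on the log2 scale (SE 1.11) did not pass the edgeR test (adjusted p = 1.0), and neither response was called.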

How the results depend on the processing

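The count of 2125 called genes was 3323 with a replicate block and an offset for length and GC, ranged from 964 to 2182 when single libraries or whole experiments were left out, and was 1251 at an adjusted p under 0.01. Risen genes ranged from 660 to 1148 under leaving out and numbered 760 at the stricter threshold. Fallen genes were 587 with only the groups compared, 1687 with block and offset, 491 at the stricter threshold, and 304 to 1034 under leaving out; the cause was not tested. With the replicate block alone 2547 genes were called, and 6 of 164 named genes (CBF1, CBF2, PRR9, CDF1, PIF5 and MYC2) gained a call and 0 lost one. DESeq2 called 2 genes for the age difference and 9 for the second cold. Leaving out libraries gave 0 to 6 for age and 0 to 39 for the second cold. Of the named genes, 24 lost their call with only the groups compared, and 38 without replicate 2, which also leaves fewer libraries. Named genes reversed direction in 0 cases. At 3 libraries a group, 33 of 100 simulated 2-fold changes were recovered, in genes with a mean of at least 5 CPM.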

Other observations

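Of 15 genes of phosphate supply and the BT family of BTB and TAZ domain proteins, 5 had risen and 1, BT5, had fallen, with a median log2 change of 0.22. BT4 rose 10.6-fold, from 3.68, 3.83 and 2.51 CPM to 21.2, 38.8 and 46.3 CPM (SE 0.468 on the log2 scale, edgeR adjusted p = 1.71e-06). SPX1, a phosphate sensor protein, rose 5.18-fold, from 11.0, 3.62 and 4.3 CPM to 37.7, 37.4 and 22.7 CPM. MGD3, a galactolipid synthase induced by phosphate starvation, was at most 0.0877 CPM at 0 h and at least 3.42 CPM at 4 h. The call of BT1 was lost without the Exp1 library at 0 h (edgeR adjusted p = 0.0502), and that of the transporter PHT1;4 without the Exp1 or Exp3 libraries at 0 h or the Exp1 or Exp2 libraries at 4 h (up to 0.116). Without the Exp1 library at 0 h, 3 genes of the list had risen.

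Defence, redox and flowering genes are set beside the 10.3% called over all genes tested. Of 14 salicylate and defence genes, 2 had risen and 0 had fallen. NPR1, the salicylate co-activator, rose 1.87-fold, from 15.3, 22.5 and 16.7 CPM to 26.0, 41.6 and 34.7 CPM, whereas the call of PAD4 was lost without the Exp1 or Exp3 libraries at 0 h or the Exp2 library at 4 h (edgeR adjusted p up to 0.191). The list held 1 riser without the Exp1 or Exp3 libraries at 0 h or the Exp2 library at 4 h, and 4 and 3 without the Exp2 library at 0 h and the Exp1 library at 4 h. PR1, a marker of salicylate defence, ran from 5.83 to 86.1 CPM at 0 h and from 1.62 to 104.2 CPM at 4 h. Of 21 jasmonate genes, JAR1 was the one called, at 1.78-fold higher, and it lost the call without any 1 of 5 libraries, all but the Exp2 library at 0 h (edgeR adjusted p up to 0.163). MYC2, the central jasmonate factor, had a log2 change of -1.52 (edgeR adjusted p = 0.0953, and 0.014 with the experiment number as a block). None of 15 redox genes was called by edgeR. Of 13 flowering genes tested, SOC1 was the one called, and FLC, the vernalization target, was not (log2 -0.55, edgeR adjusted p = 0.656).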
